A study of Mus musculus with 16 samples.

Results

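Tetraspanins are membrane proteins that span the membrane several times and are found on nearly all mammalian cells. Levels of 9 tetraspanin genes, Cd82, Cd53, Cd9, Cd81, Cd151, Cd63, Tspan12, Tspan3 and Tspan4, are described here in blood and in tumour-infiltrating cells of mice with a hepatoma. The genes were chosen by name, with ratios and sample signals from these same arrays already known, so their values are descriptions and carry no test. The probes of the 9 genes were found through the RefSeq accession in the array files. All 9 genes had a named probe, 10 of the 41174 probes in all, and all 9 passed the filter on dim probes, as members of 12298 tested genes. To pass, a probe had to be flagged by the scanner software as well above background in the sample channel on 4 or more of a group's 8 arrays, or in the reference channel on 8 or more of all 16.

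The samples came from female mice inoculated under the skin with Hepa1-6, a mouse hepatoma cell line. The labels give the strain as C57Bl/6 and the treatment text calls the inoculated animals C57Bl/6 athymic, that is, without a thymus and so poor in T cells. Neither the animals' age nor the meaning of the sample numbers is given. Tissue was taken on day 10. One group (8 arrays) is whole blood of tumour-bearing mice, placed in RNAlater and extracted with a blood kit. The other (8 arrays) is the fraction of mashed tumours that a density gradient enriched for infiltrating inflammatory cells, extracted with a different kit, and it is called infiltrating cells below. Sample RNA was labelled with Cy5 on all arrays. Cy3 carried blood RNA of untreated female C57Bl/6 mice, the reference, and dyes were not swapped, so the dye and the sample cannot be told apart in a ratio. Blood lay on slides 1 and 2 and infiltrating cells on slides 3 and 4. Tissue, extraction kit and slide therefore cannot be told apart between the groups.

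Tetraspanins gather integrins, immunoglobulin superfamily proteins and other membrane proteins into microdomains, and they shape adhesion, migration and signalling. CD9, CD63 and CD81 are widely used as markers of extracellular vesicles, and CD63 also marks late endosomes, lysosomes and the granules of several blood cells. CD53 is largely limited to leukocytes, and CD82 is known as a suppressor of metastasis. TSPAN12 works with the receptor FZD4 in the response to norrin, a signal needed for the growth of retinal vessels.

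The bases before the start sites of 4 genes are printed to set side by side the members whose ratio was highest in blood (Cd82), highest in infiltrating cells (Tspan12, Tspan3) and lowest there (Cd9). They are the 250 bases before the RefSeq start in GRCm38.p6, 5′ to 3′ on the gene's strand, and for Cd82 the most upstream of 4 listed starts. Capitals mark 2 motifs, each searched on both strands. The GC box was searched as GGGCGG. The TATA box was searched as TATAAA, and no match overlapped one of the other motif.
Cd82, chr2:93462951-93463200, - strand: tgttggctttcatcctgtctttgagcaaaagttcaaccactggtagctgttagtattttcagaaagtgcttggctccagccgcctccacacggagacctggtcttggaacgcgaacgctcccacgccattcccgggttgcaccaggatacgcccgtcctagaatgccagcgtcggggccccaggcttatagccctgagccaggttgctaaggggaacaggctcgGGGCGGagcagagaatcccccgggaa
Tspan12, chr6:21852534-21852783, - strand: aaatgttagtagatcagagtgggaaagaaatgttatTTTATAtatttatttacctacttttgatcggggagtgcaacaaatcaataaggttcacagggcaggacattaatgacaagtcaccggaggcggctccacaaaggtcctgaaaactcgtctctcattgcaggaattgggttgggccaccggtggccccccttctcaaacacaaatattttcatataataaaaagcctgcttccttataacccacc
Tspan3, chr9:56161071-56161320, - strand: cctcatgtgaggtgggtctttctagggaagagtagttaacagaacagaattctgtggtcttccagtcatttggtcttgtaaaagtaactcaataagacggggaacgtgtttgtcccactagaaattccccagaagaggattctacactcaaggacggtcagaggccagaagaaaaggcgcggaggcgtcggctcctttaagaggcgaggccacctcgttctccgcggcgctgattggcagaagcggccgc
Cd9, chr6:125494761-125495010, - strand: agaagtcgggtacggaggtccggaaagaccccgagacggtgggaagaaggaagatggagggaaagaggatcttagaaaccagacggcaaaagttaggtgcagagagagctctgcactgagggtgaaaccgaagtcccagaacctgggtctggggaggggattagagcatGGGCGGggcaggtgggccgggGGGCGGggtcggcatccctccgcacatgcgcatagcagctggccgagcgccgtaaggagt
The Cd82 window held 1 GC box and that of Cd9 held 2. The Tspan12 window held 1 TATA box, on the other strand, 214 bases before the start, and that of Tspan3 held neither motif. Over 32851 promoters of the same length in the table, 32.7% held a GC box and 12.4% a TATA box. Of the 9 members, all with a promoter in the table, 5 held a GC box and 1 a TATA box in the most upstream window. These matches describe letters only, and no value on the arrays bears on promoter use.

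The reference channel was not alike on the arrays of both groups, although the labels describe 1 kind of reference RNA. Of 26494 tested probes, 1234 were at least 2-fold brighter in Cy3 on the arrays of infiltrating cells than on those of blood, and 283 were at least 2-fold dimmer, after each array was scaled to its 75th percentile. Cy3 signals correlated at 0.985 to 0.997 within each group of arrays and at 0.91 to 0.951 between the groups, across probes, which are not independent replicates. Alb and Afp, transcripts of liver and hepatoma, were among the brighter: Alb went from 144.0 to 154.0 Cy3 units on blood arrays to between 4788 and 12328 on arrays of infiltrating cells. The cause was not tested. Of the members, Cd63 and Tspan4 were affected most, and each member's ratio is therefore given beside its signal in both channels. The spread of brightness differed as well: the 75th percentile of Cy5 was 178.0 to 201.5 units in blood and 417.0 to 1365 in infiltrating cells, and that of Cy3 183.5 to 201.0 and 220.0 to 234.5. Between 25.3% and 36.8% of probes were well above background in Cy5 in blood, and between 51.8% and 66.3% in infiltrating cells. The number of arrays limits the precision of each value.

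Markers of several cell types differed between the groups. In Cy5, Afp was at 192.2 to 235.6 units in blood and at 67414 to 337961 in infiltrating cells, so that fraction held hepatoma transcripts in all 8 samples. Summed background-subtracted Cy5 over 11 hepatoma and hepatocyte genes was 151.5 to 347.9 units in blood and 179034 to 935608 in infiltrating cells. The sum of 10 macrophage genes was 256.0 to 654.0 against 31206 to 151138, and that of 10 fibroblast genes 1054 to 1987 against 51464 to 256830. That of 9 T cell genes was 1534 to 3075 against 19499 to 56139. Sums are not scaled for the brighter Cy5 of infiltrating cells. In scaled Cy5, 28.9% of all genes were at least 2-fold higher there without overlap and 36% lower. Macrophage genes had 7 higher and 0 lower, and hepatoma and hepatocyte genes 6 and 3. Fibroblast genes had 2 and 3, and T cell genes 1 and 2. Platelet genes (12, sum 46036 to 127470 in blood) summed to 8562 to 44141 in infiltrating cells, and erythroid genes (14, sum 300895 to 658553 in blood) to 67076 to 166764. In blood, 6 of 10 macrophage genes were well above background on no array (Mrc1, C1qa, C1qc, Cd163, Mertk and Marco). Ptprc, the pan-leukocyte phosphatase CD45, was bright in both groups, at 1530 to 3295 units in blood and 12986 to 41539 in infiltrating cells. What part any of these cells had in the values of the tetraspanins was not tested, and in bulk samples a change in the number of cells of a type cannot be told apart from a change in RNA per cell.

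Cd82 had the highest ratio of the members in blood, and a lower but still positive ratio in infiltrating cells. Its Cy5 signal in blood was 1123 at the lowest, 1651 at the median and 2100 units at the highest, against Cy3 values on the same arrays of 498.0, 549.8 and 631.5. Every blood array thus had more Cd82 signal in the sample than in the reference. The log2 ratio was 2.05 at the lowest (sample 889), 2.20 at the median and 2.34 at the highest (sample 890), with a mean of 2.22 ± 0.09 (SD, n = 8). In infiltrating cells the Cy5 signal was 7488, 13457 and 21289 units and the Cy3 signal 687.0, 901.3 and 1019, in the same order. The ratio there was 0.85 at the lowest (sample 896), 1.12 at the median and 1.39 at the highest (sample 889), with a mean of 1.15 ± 0.17 (SD, n = 8). On the ratio scale the groups did not overlap and the difference (infiltrating cells minus blood) was −1.07 ± 0.07 (SE, 8 against 8 arrays). The order also held in Cy5 after loess and scaling between arrays, a quantity that draws on both channels, with a difference of −0.87 and no overlap. It was lost in Cy5 alone: Cy5 scaled to each array's 75th percentile overlapped and was 0.17 ± 0.12 higher in infiltrating cells. Unscaled Cy5 was 3.13 higher and did not overlap. The order of the 2 tissues for Cd82 thus rests on the scaling, with infiltrating cells 1.73 higher under median centring and 1.15 higher under centring on spike-in controls.

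On both slides of blood the Cd82 ratio was alike, with means of 2.19 and 2.24 over 4 arrays each. Beside it, 5 of 10 neutrophil genes and 3 of 12 platelet genes were called higher in the same blood arrays (0.537% of all genes), and 6 of 10 B cell genes were called lower (0.252% of all genes). A gene is called where its Benjamini-Hochberg adjusted p in limma is under 0.05 over all tested probes and its change is at least 2-fold. Among the 12297 other tested genes, the ratios most like that of Cd82 across the 8 blood arrays were those of Ifrd2 (Pearson r = 0.97), Selenbp2 (0.95), Trak2 (0.94) and Pax6 (0.93). That of Pax6 was 0.25 under median centring and 0.73 in the deposited ratios, and the other 3 were at least 0.855 in both. These correlations describe 8 points that share a reference and slides, and were the highest of many.

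Cd53, the tetraspanin largely limited to leukocytes, had ratios near 0 in both tissues after loess. In infiltrating cells this rests on the centring, with a mean of 1.90 under median centring and 1.17 under spike-in centring. Cy5 was 311.0, 416.0 and 532.0 units in blood (lowest, median, highest) and 2553, 5374 and 9321 in infiltrating cells, against Cy3 values of 547.0 to 783.0 and 832.0 to 1022. The ratio was −0.42 to 0.09 in blood, with a mean of −0.20 ± 0.18 (SD, n = 8). In infiltrating cells it was −0.88 to 0.38, with a mean of −0.37 ± 0.43, the widest spread of any member. The means on slides 3 and 4 were −0.15 and −0.59. The groups overlapped on the ratio scale and after scaling of Cy5, where infiltrating cells lay 1.03 ± 0.21 higher.

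**Figure D1:**
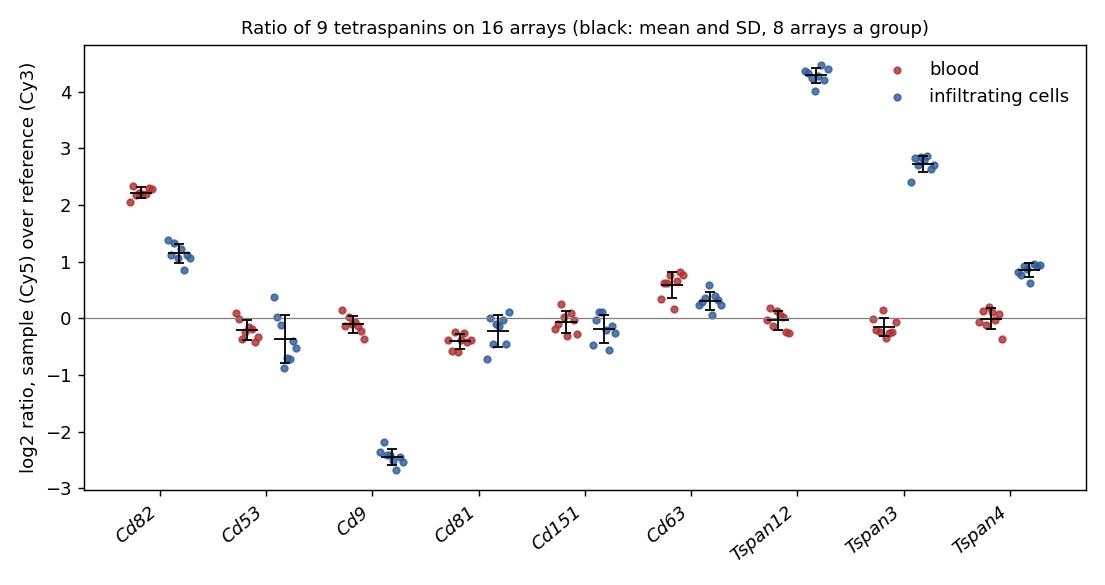
Log2 ratio of sample (Cy5) over reference (Cy3) for the 9 tetraspanin genes on 8 blood arrays (red) and 8 arrays of infiltrating cells (blue); points are arrays, black bars the mean and SD. Cd82 lies near 2.2 in blood, Tspan12 between 4.02 and 4.47 and Tspan3 between 2.41 and 2.86 in infiltrating cells, Cd9 between −2.68 and −2.19 there, and most other members close to 0.

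Cd9, Cd81 and Cd151 bind integrins and immunoglobulin superfamily proteins at the cell surface, and Cd9 is abundant on platelets. After loess the ratio of Cd9 was far from 0 in infiltrating cells, and those of Cd81 and Cd151 were not. Under median centring the ratios there were −0.11 for Cd9, 2.10 for Cd81 and 2.12 for Cd151, and under spike-in centring −0.84, 1.37 and 1.39. In blood, Cd9 had Cy5 values of 12065, 19335 and 32509 units (lowest, median, highest) against 21695 to 30481 in Cy3, and a ratio of −0.37 to 0.15 with a mean of −0.11 ± 0.15 (SD, n = 8). In infiltrating cells Cy5 was 14913, 38157 and 65368 units against 23511 to 27754 in Cy3. The ratio there was −2.68 (sample 896) to −2.19 (sample 890), with a mean of −2.44 ± 0.14 (SD, n = 8). All 8 infiltrating samples lay below all 8 blood samples on the ratio scale, with a difference of −2.34 ± 0.07, and in scaled Cy5, with one of −2.16 ± 0.14. In unscaled Cy5 the groups overlapped and infiltrating cells were 0.81 higher, and under median centring the difference of ratios was 0.15 higher. Relative to the rest of its array Cd9 was lower in infiltrating cells, whereas its raw signal was not. Cy3 of Cd9 moved little between the sets of arrays (a difference of −0.44 after scaling). Beside this, all 12 platelet genes were called lower in infiltrating cells than in blood, with a median of −5.55. None of those 12 was below background on every array of infiltrating cells, and their part in the Cd9 value was not tested.

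Cd81, part of the co-receptor complex of B cells, had Cy5 values of 1811, 2687 and 5044 units in blood and 10410, 37086 and 81227 in infiltrating cells. Its reference signal was steady, at 4323 to 5501 and 4870 to 6002. The ratio was −0.60 to −0.24 in blood (mean −0.40 ± 0.13) and −0.72 to 0.10 in infiltrating cells (mean −0.22 ± 0.29; SD, n = 8). The groups overlapped on both scales, with a difference of 0.18 ± 0.11 in the ratio and 0.71 ± 0.20 in scaled Cy5. All 8 blood samples lay below the reference for Cd81, whereas the infiltrating samples lay on both sides.

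Cd151, which binds laminin-receptor integrins, had Cy5 values of 461.0, 665.5 and 1051 units in blood and 3012, 11381 and 17639 in infiltrating cells. Cy3 was 914.0 to 1160 on blood arrays and 1358 to 1888 on the others. Ratios averaged −0.07 ± 0.20 in blood and −0.18 ± 0.25 in infiltrating cells (SD, n = 8) and spanned 0 in both. In scaled Cy5 the groups overlapped and infiltrating cells were 1.04 ± 0.18 higher.

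Cd63, the tetraspanin of late endosomes and granules, was bright in both channels on arrays of infiltrating cells and dim in both on blood arrays. In Cy5 it was at 192.0, 227.5 and 261.0 units in blood (lowest, median, highest) and at 8871, 51185 and 81583 in infiltrating cells. In Cy3 it was at 182.0, 192.0 and 203.0 units on blood arrays and at 2462, 4415 and 7373 on arrays of infiltrating cells. Neither channel overlapped between the sets. The scaled difference was 5.35 ± 0.20 in Cy5 and 4.86 ± 0.16 in Cy3 (log2, SE, 8 against 8 arrays). The ratio was 0.16 to 0.81 in blood (mean 0.59 ± 0.23) and 0.05 to 0.59 in infiltrating cells (mean 0.31 ± 0.15; SD, n = 8), and the groups overlapped. A Cd63 ratio near 0 after loess in infiltrating cells was thus a ratio of 2 bright signals. That ratio also rests on the centring, with a mean of 2.63 under median centring, 1.90 under spike-in centring and 0.36 in the deposited ratios. In blood the mean was 0.27, 0.12 and 1.29 in the same order.

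Tspan4, known for its part in migrasomes, the vesicles that migrating cells leave behind, followed the same course. Cy5 was 158.0, 169.0 and 179.0 units in blood, well above background on 1 of 8 arrays, and 4113, 16482 and 25293 in infiltrating cells. Cy3 was 153.0 to 167.0 on blood arrays and 804.0 to 1717 on the others, a scaled difference of 3.44 ± 0.12. The ratio averaged 0.00 ± 0.18 in blood and 0.85 ± 0.12 in infiltrating cells (SD, n = 8), with 0.61 as the lowest of the 8 infiltrating samples and 0.97 as the highest. Ratios of the groups did not overlap. In infiltrating cells the mean was 3.15 under median centring, 2.42 under spike-in centring and 0.85 in the deposited ratios. The blood ratio, −0.57 in the deposited ratios, is no level. Scaled Cy5 differed by 4.70, a value with no fold to be read from it, since the blood signal was measured above background on 1 array. For both Cd63 and Tspan4, Cy3 was lowest on the array of infiltrating sample 889 and highest on that of sample 893.

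**Figure D2:**
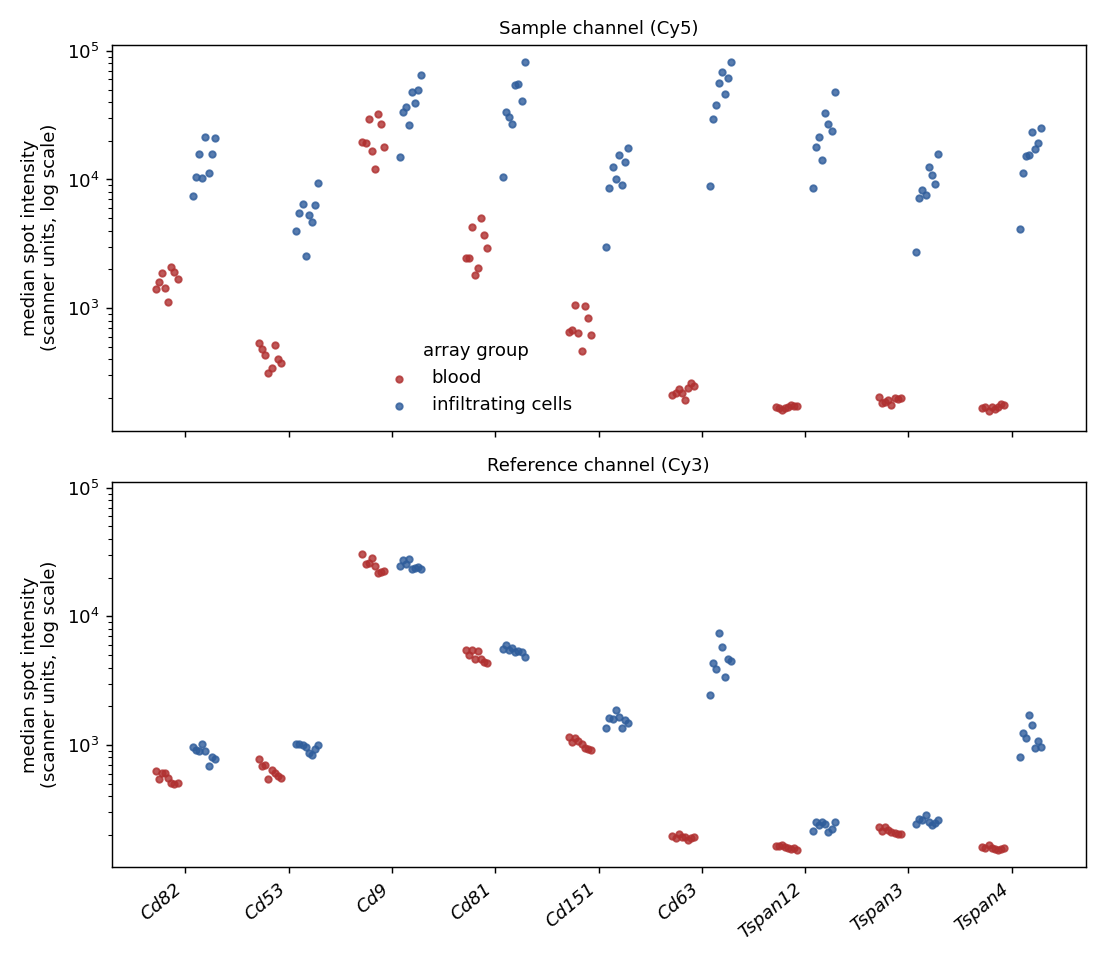
Median spot intensity (scanner units, log axis) of the 9 genes in the sample channel (top) and the reference channel (bottom), one point per array, blood in red and infiltrating cells in blue. In the reference channel all members but Cd9 and Cd81 separate by array group. Cd63 (182.0 to 203.0 against 2462 to 7373) and Tspan4 (153.0 to 167.0 against 804.0 to 1717) do so most widely.

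Tspan12 had the largest ratio of any member, in infiltrating cells. In blood its Cy5 signal was 161.5, 170.0 and 176.0 units (lowest, median, highest) and not well above background on any of 8 arrays, so its blood ratio of −0.03 ± 0.17 (SD, n = 8) is no level. In infiltrating cells Cy5 was 8527, 22527 and 48106 units, well above background on all 8. Cy3 stayed low on both sets, at 153.0 to 168.0 and 212.0 to 252.0. The high signal was thus in the sample channel and not in the reference of the same arrays. The ratio in infiltrating cells was 4.02 at the lowest (sample 893), 4.30 at the median and 4.47 at the highest (sample 896), with a mean of 4.29 ± 0.14 (SD, n = 8), and means of 4.24 and 4.34 on slides 3 and 4. After loess and scaling between arrays, sample signal in infiltrating cells was at least 35.3-fold that in blood (5.14 in log2). For this bound, each blood array contributed either the Tspan12 signal or the dimmest signal that any detected probe had on that array, whichever was greater. It was 37.4-fold with scaling to the 75th percentile, and open to dye bias in either case. The bound holds for these scalings of Cy5 only. The log2 ratios differed by less, 4.32, with no level in blood.

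Across the 8 infiltrating samples, the ratios most like that of Tspan12 among 12297 other genes were those of Uqcrfs1 (Pearson r = 0.97), D6Wsu163e (0.96), Plekha7 (0.96) and Cotl1 (0.96), given as a description of 8 points that share slides and a reference. In the deposited ratios they were 0.27, 0.04, 0.53 and 0.69, so the likeness rests on the normalisation. Signals of norrin pathway genes around Tspan12, not scaled for the brighter Cy5 of infiltrating cells, were as follows. Fzd4, the receptor, had Cy5 values of 160.0 to 177.0 units in blood, on no array well above background, and 185.0 to 452.0 in infiltrating cells. Its ligand Ndp was at 154.0 to 172.0 units in blood, on no array well above background. In infiltrating cells Ndp was at 163.0 to 183.0 units and well above background on 6 of 8 arrays. Fzd4 and Ndp passed the filter only through the arrays of infiltrating cells, so no difference between the tissues is read from them. The co-receptor Lrp5 was at 174.5 to 218.0 units in blood and 393.5 to 1641 in infiltrating cells. None of these 3 genes was called in either tissue against the reference by limma. In infiltrating cells their log2 ratios were 0.35, 0.15 and 0.92, and they were described after their values were seen.

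Tspan3, a widely expressed tetraspanin, also had a high ratio in infiltrating cells, and its 2 probes differed in size. By the brighter probe Cy5 was 176.0, 195.5 and 205.5 units in blood and 2707, 8749 and 15913 in infiltrating cells, against Cy3 values of 203.0 to 229.5 and 240.0 to 287.0. The reference was therefore low on both sets of arrays. The ratio was −0.35 to 0.15 in blood (mean −0.16 ± 0.16) and 2.41 (sample 889) to 2.86 (sample 896) in infiltrating cells (mean 2.72 ± 0.15; SD, n = 8). Groups did not overlap, with differences of 2.88 ± 0.08 in the ratio and 3.49 ± 0.10 in scaled Cy5. By the other probe Cy5 was 151.0 to 172.5 units in blood, on no array well above background, and 307.0 to 1492 in infiltrating cells. Its ratio averaged 0.59 in infiltrating cells, 0.70 ± 0.08 above blood, and its sample signal was at least 2.62-fold that in blood after loess and scaling between arrays, or at least 1.39-fold with scaling to the 75th percentile. The dimmer probe passed the filter only through the arrays of infiltrating cells, and in scaled Cy5 its groups overlapped. Its values are therefore no support for those of the brighter probe.

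**Figure D3:**
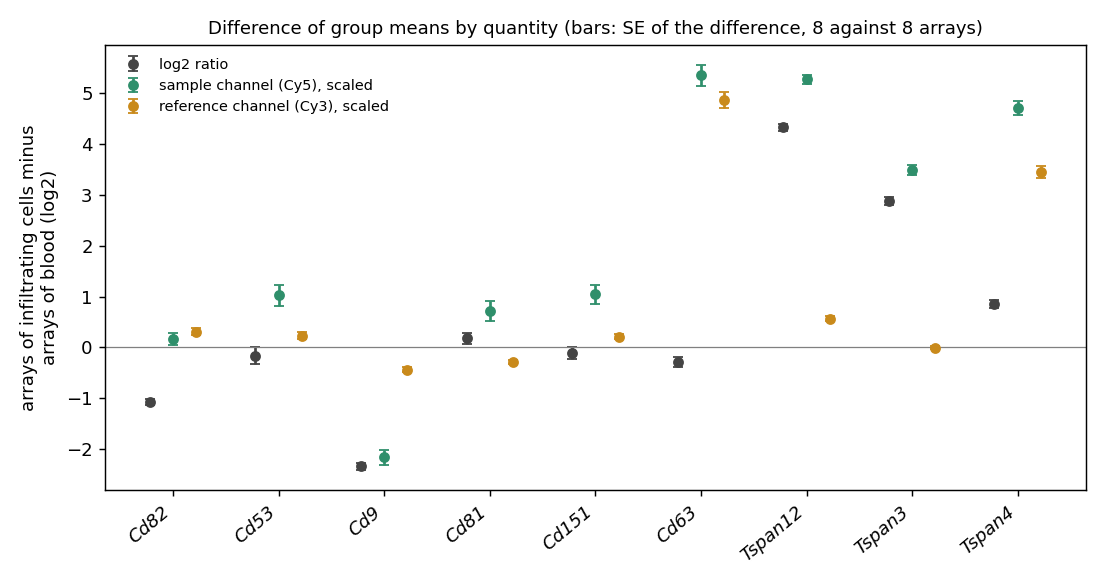
Difference of group means (infiltrating cells minus blood, log2) for the 9 genes in the ratio (grey), the scaled sample channel (green) and the scaled reference channel (yellow); bars are the SE of the difference, 8 against 8 arrays. Blood signals of Tspan12 (0 of 8 arrays) and Tspan4 (1 of 8) were not measured above background on most arrays, so their sample and ratio differences are no folds. Tspan12 and Tspan3 are high in ratio and sample but near 0 to 0.57 in the reference, whereas Cd63 and Tspan4 are high in sample and reference alike.

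By the call rule, 1 of the 9 members (Cd82, higher) was called in blood, where 0.789% of all genes were called. In infiltrating cells 4 were called against the reference, 3 higher (Cd82, Tspan12, Tspan3) and 1 lower (Cd9), where 23.1% of all genes were. Between the tissues 4 were called, 2 higher in infiltrating cells (Tspan12, Tspan3) and 2 lower (Cd82, Cd9), where 27.6% were. In scaled Cy5, 4 members were at least 2-fold higher in infiltrating cells with groups that did not overlap (Tspan12, Cd63, Tspan4 and Tspan3; 28.9% of all genes) and 1 was lower (Cd9; 36% of all genes). The same rule on Cy3 took 2 members as higher (Cd63 and Tspan4; 7.14% of all genes) and 0 as lower (1.13% of all genes). Under median centring the split of all called genes was 7889 higher and 515 lower between the tissues, against 1667 and 1722 after loess, and in infiltrating cells 7576 and 519 against 1313 and 1529. In blood it was 16 and 558 against 66 and 31. The median of all genes between the tissues was 0.09 after loess, 1.68 under median centring, 1.10 under spike-in centring and 0.42 in the deposited ratios. Nothing is read from the counts of members, since the members were chosen with these values known. The comparisons share the reference channel, and the third uses the arrays of the other 2.

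**Figure D4:**
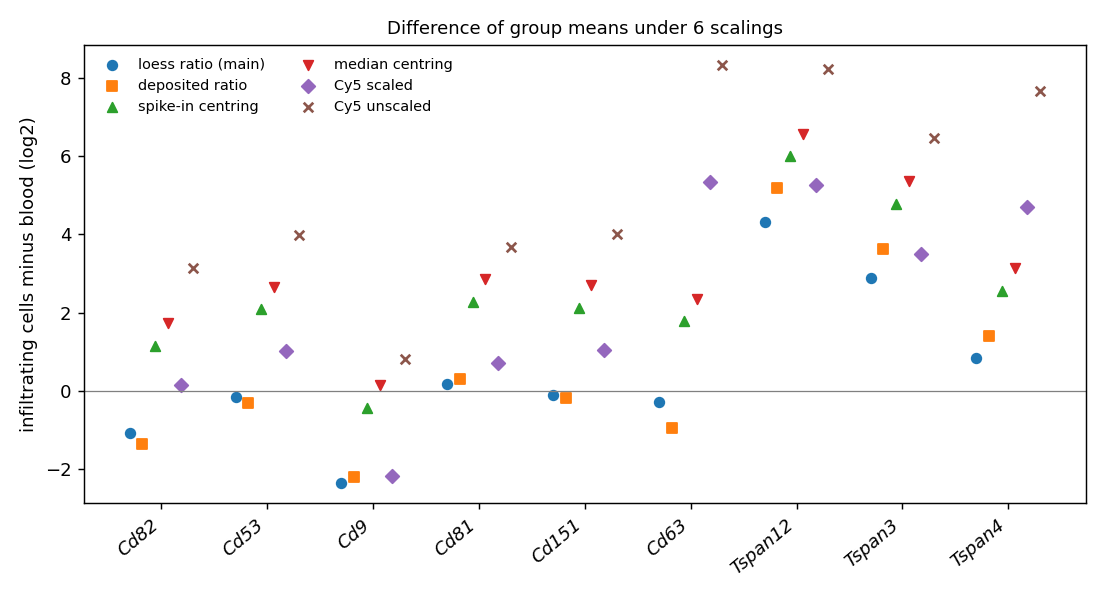
Difference of group means (infiltrating cells minus blood, log2) of the 9 genes under 6 scalings, one symbol each. Tspan12, Tspan3, Tspan4 and, by less, Cd81 lie above 0 under all 6, while Cd82 runs from −1.34 to 3.13 and Cd9 from −2.34 to 0.81.

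After loess, other tetraspanins were called in both directions in infiltrating cells, and more of those called were lower. Of 22 further tetraspanin genes, 18 were tested. In blood 1 was called higher, 0 lower, and 13 had an unadjusted p under 0.05; 0.537% of all genes were called higher and 0.252% lower. That gene was Tspan17, which takes part in the transport of the protease ADAM10: Cy5 was 1624 to 4357 units against 1359 to 1827 in Cy3, and the ratio was 1.10 ± 0.05 (SE; limma adjusted p = 9.0e-11), higher on 8 of 8 arrays. It lost the 2-fold mark under median centring (0.67) and spike-in centring (0.52). In infiltrating cells 2 were higher and 6 lower, with a median of −0.72 over the 18 beside 0.05 over all genes. Of all genes, 10.7% were called higher and 12.4% lower. These counts by direction are for loess alone. The median of all genes there was 1.46 under median centring and 0.73 under spike-in centring. Tspan1, among the 6 lower, was well above background in Cy5 on 1 of 8 arrays of infiltrating cells.

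Tspan33, a tetraspanin of erythroid precursors and activated B cells, fell by 4.26 ± 0.06 against the reference in infiltrating cells (SE; limma adjusted p = 1.6e-14), where Cy5 was 1502 to 5187 units and Cy3 6464 to 7033. Tspan32 fell by 2.22 ± 0.07 (adjusted p = 1.2e-11) and Cd37, a leukocyte tetraspanin prominent on B cells, by 2.13 ± 0.06 (adjusted p = 1.4e-12), each lower on 8 of 8 arrays. Under median centring Tspan32 (−0.47) and Cd37 (−0.55) stayed below 0 but missed 2-fold. Beside them, all 10 B cell genes and 11 of 14 erythroid genes were called lower in infiltrating cells, and their part was not tested. Tspan31 rose by 2.12 ± 0.05 against the reference (adjusted p = 3.9e-13). It had Cy5 values of 224.0 to 274.0 units in blood and 7803 to 37181 in infiltrating cells. Tspan8, a tetraspanin of epithelia and of carcinomas, rose by 1.36 ± 0.06 against the reference (adjusted p = 9.2e-11), with Cy5 at 260.0 to 462.5 units in blood and 4840 to 27635 in infiltrating cells. Cy3 of both was higher on arrays of infiltrating cells, at 604.0 to 818.5 against 350.5 to 442.0 for Tspan31 and 692.0 to 1183 against 323.5 to 432.0 for Tspan8.

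Between the tissues after loess, 2 of the 18 were higher in infiltrating cells and 8 lower, where 13.6% and 14% of all genes were called. Tspan33 differed from blood by −5.22 ± 0.08 (SE; limma adjusted p = 6.4e-23), and Tspan31 was 2.62 ± 0.07 above it (adjusted p = 3.5e-19). Tspan17 differed by −2.22 ± 0.09 (adjusted p = 6.1e-16). It differed by −0.08 under spike-in centring, and was 0.50 above blood under median centring and 1.02 above it in unscaled Cy5. Cd37 differed by −2.14 ± 0.08 (adjusted p = 2.3e-16). Its difference was −0.14 under median centring (limma adjusted p = 0.323) and −0.72 under spike-in centring, and in unscaled Cy5 it was 0.92 above blood. Tspan8 was 1.02 ± 0.09 above (adjusted p = 3.3e-10) and fell under the 2-fold mark without blood sample 889 (0.98), blood sample 893 (0.98) or infiltrating sample 894 (0.99), with floor subtraction of background (0.88) and in the deposited ratios (0.84).

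**Figure D5:**
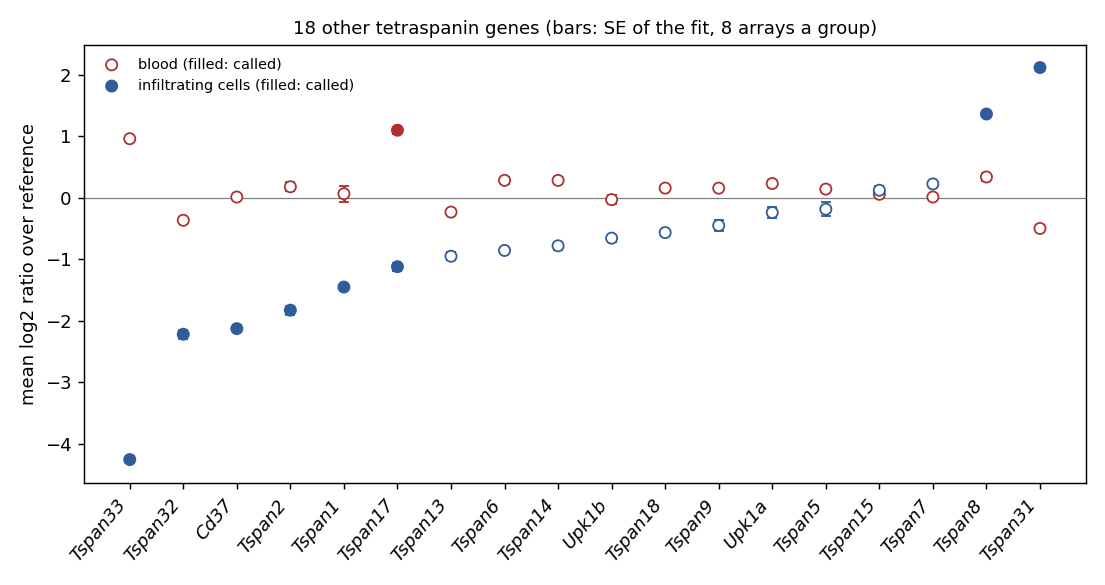
Mean log2 ratio over the reference of 18 other tetraspanin genes in blood (red) and infiltrating cells (blue), ordered by the latter; bars are the SE of the limma fit over 8 arrays a group, and filled symbols were called. Tspan33 at −4.26 and Tspan31 at 2.12 are the ends of the range in infiltrating cells.

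Partners of tetraspanins were called in both directions in infiltrating cells after loess. Of 23 genes listed as partners, among them integrins, receptors, proteases and ligands, 22 were tested. In blood 0 were called by limma, with 14 at an unadjusted p under 0.05. In infiltrating cells 1 was higher and 6 lower (10.7% and 12.4% of all genes), with a median of 0.07 beside 0.05 over all genes. There 19 had an unadjusted p under 0.05 in limma, and 11 of those were higher. Ackr1, among the 6 lower, was well above background in Cy5 on no array of infiltrating cells. Egfr, the epidermal growth factor receptor, was 3.09 ± 0.06 (SE) above the reference, at 2440 to 17127 Cy5 units against 187.5 to 275.9 in Cy3 of the same arrays. It was detected in Cy5 on none of the blood arrays. Cr2, a complement receptor of B cells, fell by 2.31 ± 0.11 (adjusted p = 4.2e-10), at 160.5 to 171.0 Cy5 units against 215.5 to 273.5 in Cy3, and stands in the B cell list too. It was well above background in Cy5 on 1 of 8 arrays of infiltrating cells. Between the tissues 1 was higher and 8 lower (13.6% and 14% of all genes). The higher one was Egfr, which passed the filter only through the arrays of infiltrating cells. Nothing is therefore read from its call between the tissues or from that against the reference. Itga6, the laminin receptor subunit that binds CD151, differed from blood by −2.11 ± 0.11 (adjusted p = 5.5e-14), but was above blood by 0.64 under median centring, 0.06 under spike-in centring and 1.38 in unscaled Cy5.

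Genes of exosome and late endosome biology, where CD63 and CD81 are sorted, were called in small numbers. Of 12 tested, 0 were called in blood, with 7 at an unadjusted p under 0.05 in limma. In infiltrating cells 0 were higher and 2 lower (10.7% and 12.4% of all genes), with 12 at an unadjusted p under 0.05, and the median was −0.26. Between the tissues 1 was higher and 2 lower (13.6% and 14% of all genes). Rab27b, a GTPase of secretory granules and exosome release, fell by 3.68 ± 0.08 (SE; adjusted p = 2.2e-13), at 169.0 to 218.5 Cy5 units against 405.0 to 455.0 in Cy3. It differed from blood by −4.40 ± 0.11 (adjusted p = 5.7e-20). Vps4b, an ATPase of the ESCRT machinery, was 1.18 ± 0.09 above blood (adjusted p = 4.1e-11) by one probe and 0.18 by the other. Chmp4b, an ESCRT-III subunit, fell by 1.19 ± 0.17 in infiltrating cells (adjusted p = 2.5e-05) by one probe, whereas the other was at 0.78 ± 0.09, which missed 2-fold. The fall of Chmp4b also turned under median centring (1.11) and spike-in centring (0.38). The difference from blood by the same probe was −1.40 ± 0.29 (adjusted p = 0.00018) with groups that overlapped, and turned in scaled Cy5 (0.25), under median centring (1.41) and under spike-in centring (0.83).

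Counts of the marker lists in infiltrating cells against the reference, where 10.7% of all genes were called higher and 12.4% lower after loess, and 7576 genes higher and 519 lower under median centring, were as follows. Platelet genes had 0 higher and 11 lower of 12 tested, erythroid genes 0 and 11 of 14, and B cell genes 0 and 10 of 10. T cell genes had 0 and 3 of 9, neutrophil genes 1 and 5 of 10, and endothelial genes 0 and 0 of 6, of which 5 had an unadjusted p under 0.05 in limma. Macrophage genes had 6 and 0 of 10, hepatoma and hepatocyte genes 6 and 0 of 11, and fibroblast genes 3 and 0 of 10.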

How the data were processed

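RNA of the 16 samples was hybridised to 2-colour Agilent mouse arrays. Per channel, the deposited scanner files give a spot's median intensity and that of the background around it, and a log10 ratio of Cy5 over Cy3, written by Feature Extraction 10.5.1.1 per the file headers; the submitters' processing notes name 9.1.3.1. Background was corrected with normexp (offset 50) and ratios were normalised by loess in limma 3.58.1 (R 4.3.3, with the package data.table at version 1.17.8). Spots flagged as outliers were left out.

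Spots whose local background was over 50 units brighter than the spot in either channel (at most 12 on an array, on 5 arrays) were left out, a step chosen after seeing the data. With them kept, the normexp correction of infiltrating sample 897 added a median of 542 units in Cy5 and 392 in Cy3, against 10.4 and −9.01 without. Their loss moved the Tspan12 ratio from 4.01 to 4.29.

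Of 41174 probes, 23374 had 1 symbol through RefSeq accessions (assembly GRCm38.p6), 0 several and 17800 none. Where a gene had several probes, the one with the highest mean log2 signal stood for it. Groups were tested against 0 (8 arrays) and against each other (16 arrays) with limma's lmFit and eBayes. The reference stands for 1 control sample, so its own spread is left out. Nothing in the labels says whether samples of a group are separate animals, so p-values measure only the spread between these samples.

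The members and lists were chosen with earlier results of these data known. Named genes are the members, the called genes of the 3 tetraspanin-related lists with the 3 largest rises and falls per comparison, the 4 genes most like Cd82 in blood and Tspan12 in infiltrating cells, and fixed markers, of which Cd68 was not tested; some genes that this rule names are not reported here. Scaled signals are log2 values after normexp minus each array's 75th percentile. Alternatives covered background correction, centring, filters, probe choice, slides, the replicate number and single channels. The deposited signals are not sequence reads, so depth does not apply.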

Additional observations from a re-analysis of the deposited data

Results flagged for a closer look

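Infiltrating sample 889 stood apart for Tspan3 in the scaled sample channel, at 3.01, with a gap of 0.604 of the group's range; that is above Dixon's critical value for 8 samples. It was 1 of 36 groups examined, and chance marks about 1 in 20. The same array had the lowest 75th percentile of Cy5 in its group (417.0 units).

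The ratios of 9 genes from the tetraspanin-related lists differed between infiltrating cells and blood in limma. Tspan31 (2.62), Tspan8 (1.02) and Vps4b (1.18) were higher in infiltrating cells. Tspan33 (−5.22), Rab27b (−4.40), Tspan17 (−2.22), Cd37 (−2.14), Itga6 (−2.11) and Chmp4b (−1.40) were lower, and the direction of 4 of these turned under other scalings (Tspan17, Cd37, Itga6, Chmp4b).

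In the reference channel, which the labels describe as 1 kind of RNA, Cd63 was 4.86 and Tspan4 3.44 higher (log2, scaled) on arrays of infiltrating cells than on arrays of blood. The cause was not tested.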

How the results depend on the processing

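Genes called in blood (97), in infiltrating cells (2842) and between them (3389) came to 405, 4365 and 5306 with floor subtraction of background, 574, 8095 and 8404 under median centring, 1047, 6794 and 7715 under spike-in centring, 957, 5759 and 7006 with the deposited ratios, and 6271, 10046 and 9752 with no minimum fold. In blood they came to 53 with no background correction and 152 on the second slide, and between tissues to 8095 in scaled Cy5; scaled and unscaled Cy5 and the kept debris spots are alternatives chosen after seeing the data. The ratio of Cd82 in blood (2.22) and of Tspan12 in infiltrating cells (4.29) were 1.96 and 3.83 with no background correction, 2.40 and 4.64 with floor subtraction, 1.70 and 6.55 under median centring, 1.55 and 5.82 under spike-in centring, and 2.47 and 4.91 in the deposited ratios. Tspan12 was at 4.01 with debris spots kept.

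Between tissues, direction turned under median centring for Cd82 (1.73), Cd9 (0.15), Tspan17 (0.50), Itga6 (0.64) and Chmp4b (1.41), under spike-in centring for Cd82 (1.15), Itga6 (0.063) and Chmp4b (0.83), in scaled Cy5 for Cd82 (0.17) and Chmp4b (0.25), and in unscaled Cy5 for Cd82 (3.13), Cd9 (0.81), Tspan17 (1.02), Cd37 (0.92), Itga6 (1.38) and Chmp4b (3.21). Chmp4b in infiltrating cells turned under median (1.11) and spike-in centring (0.38). The cause was not tested.

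Leaving out 1 sample gave 84 to 108, 2839 to 2905 and 3364 to 3446 called genes, 2.20 to 2.24 for Cd82 and 4.26 to 4.32 for Tspan12. With the sample number as a replicate block, 3390 genes were called between tissues. Deviations of same-numbered samples correlated at −0.05 to 0.11, over 0.1 in 2 of 8 pairs, and 6 of 8 samples correlated best with their own number. The main fit did not take the numbers as pairs because the labels do not give their meaning. Whether a number marks the same animal in both groups is not settled here. Signal over background limits Tspan12, Tspan4 and the dimmer Tspan3 probe in blood.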
